A study of Mus musculus with 15 samples.

Results

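Mice that breathed octanal and cis-3-hexenol from a shared filter paper (O+C) were compared with mice given papers without odorant (Control), over all genes. The comparison takes 6 of the 15 libraries of the series, 3 O+C and 3 Control, and the 19229 genes with enough counts to be tested, of 57010 in the table. Each library is messenger RNA bound to ribosomes that carry phosphorylated ribosomal protein S6, precipitated from the olfactory epithelium. All animals were wild-type male C57BL/6J mice of 8 weeks, kept 4 h without odorant and then exposed for 90 min. O+C mice received 10 µL of each odorant on 1 paper. O&C mice, used below for delivery, received the same volumes on separate papers about 1 mm apart. A+D mice received acetophenone and decanal on 1 paper, and Control mice received no odorant. A&D mice received acetophenone and decanal on separate papers about 1 mm apart, and only a few of their mean levels are given below. Neither octanal nor cis-3-hexenol was given alone, so the parts of the pair cannot be told apart. The labels call the libraries of a group biological replicates, and each was taken as 1 mouse.

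Octanal is a straight-chain aldehyde of citrus smell, and cis-3-hexenol is the alcohol that gives cut grass its odour. A mature olfactory sensory neuron uses a single odorant receptor gene out of the whole repertoire. An odorant that binds the receptor raises cyclic AMP, which opens a cation channel, lets in calcium and makes the neuron fire. S6, a protein of the small ribosomal subunit, is phosphorylated in active neurons, so the precipitate is enriched for what active cells translate, their receptor transcripts included. Mouse receptors fall into class I, the older group shared with fish, and the larger class II, and into numbered families called MOR.

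Omp, the olfactory marker protein of mature olfactory neurons, lay at 9480, 7840 and 7020 CPM (library-scaled counts, after TMM scaling) in O+C libraries and at 4200, 4930 and 4310 CPM in Control libraries, so the tissue carries its defining marker. Library Control 1 stood apart in Obp2a, an odorant binding protein of nasal glands. Obp2a lay at 459, 162 and 134 CPM in O+C, and at 0.162 CPM in Control 1, against 126 and 247 CPM in Control 2 and Control 3. The list of gland odorant binding proteins summed to 9920 CPM of the library total in Control 1. It summed to 7760 and 9740 CPM in Control 2 and Control 3, so the sum was not low in Control 1. The libraries held 24133859, 24924710 and 25287060 counts in O+C and 23695628, 24310136 and 23313591 in Control. In a precipitate from whole tissue, changes in cell number, in RNA per cell and in the share precipitated cannot be told apart. Genes whose estimated counts were not whole in most libraries are marked below as sharing reads, which makes their values less certain.

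Of all genes tested, 1104 were higher in O+C than in Control (5.74%) and 451 lower (2.35%) by edgeR's quasi-likelihood test with an adjusted p under 0.05, together 8.09%. Leaving out O+C 1 left 476 higher and 66 lower, Control 1 636 and 107, Control 2 647 and 187, Control 3 552 and 241, O+C 2 908 and 298, and O+C 3 821 and 145. Called in all 6 of these fits as well as with every library were 407 higher genes (2.12%) and 35 lower genes (0.182%). Scaling by the receptor genes alone moved the median of all genes up by 0.241 on the log2 scale and gave 1786 higher and 24 lower genes.

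Among odorant receptors, those called were mostly higher, while with TMM scaling most of the family lay slightly below Control. Of 1107 intact receptor genes, 866 were tested, and 98 of them were higher in O+C (5.74% of all genes were), 32 were lower (2.35% of all genes were) and 736 were not called, beside 8.09% of all genes called in either direction. When each library was left out in turn, 77 (without Control 1) to 90 receptors were called higher, and 71 of the 98 were called in every such fit. Lower receptors were 3 to 21 in the same fits: 3 (without O+C 1), 5 (Control 3), 10 (O+C 3), 13 (Control 2) and 21 (Control 1, O+C 2), and 2 were called in every fit. With receptor scaling the split was 116 higher and 7 lower. With TMM scaling the median log2 fold change over the 866 receptors was -0.33, with 274 of them above 0, against -0.01 over all genes tested. Over the 98 higher receptors it was 2.07 (0.73 to 4.55). At least 2-fold higher were 93 of them, at least 4-fold 50 and at least 8-fold 18. The 241 receptors not tested had at most 26 counts each in the 6 libraries, and 35 had none.

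**Figure D1:**
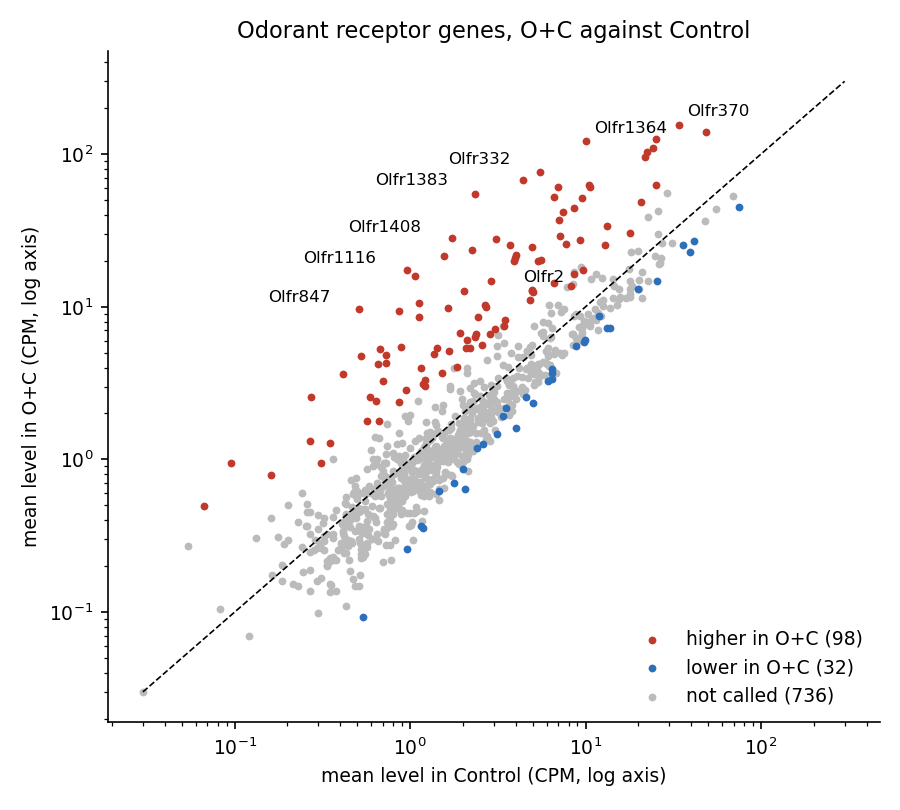
Mean level of each tested odorant receptor gene in O+C (vertical axis) against Control (horizontal axis), in CPM on log axes. Each point is a receptor, coloured by its call (98 higher in O+C, 32 lower, 736 not called), the dashed line marks equal levels, and means under 0.03 CPM are drawn at 0.03. Of the red points, 93 of 98 lie at least 2-fold above the line, over the whole range of Control levels, and of the blue points 13 of 32 lie at least 2-fold under it.

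Receptor transcripts took 0.468%, 0.482% and 0.453% of all counts in the O+C libraries and 0.309%, 0.365% and 0.350% in the Control libraries. Every O+C library lay above every Control library. The difference of means was 0.126 percentage points, with a two-sided exact permutation p = 0.1, the smallest that 3 against 3 libraries can give. Split by call, the 98 higher receptors summed to 2680, 2410 and 2140 CPM in O+C and to 504, 593 and 539 CPM in Control. The 32 lower receptors summed to 197, 248 and 219 CPM in O+C and to 337, 354 and 421 CPM in Control. The 736 receptors that were not called summed to 1970, 2140 and 2070 CPM in O+C and to 2090, 2560 and 2390 CPM in Control. These sums follow from the calls and are given as a description.

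The receptor with the highest fold was Olfr1383, which shares reads. It lay at 56.9, 50.8 and 57.5 CPM in O+C and at 2.26, 1.71 and 3.06 CPM in Control, which is 4.55 ± 0.34 on the log2 scale (fold change ± SE, edgeR adjusted p = 1.43e-06). Olfr847 had 7.1, 12.2 and 9.88 CPM in O+C and 0.364, 0.558 and 0.62 CPM in Control, which is 4.23 ± 0.47 on the log2 scale (edgeR adjusted p = 6.78e-05). Olfr1116 had 16.8, 21.0 and 14.7 CPM in O+C and 0.525, 1.08 and 1.28 CPM in Control, which is 4.18 ± 0.31 on the log2 scale (edgeR adjusted p = 2.83e-07). In each of these receptors every O+C library lay far above every Control library. Olfr1408 followed with 27.4, 31.5 and 26.0 CPM in O+C and 1.17, 1.95 and 2.07 CPM in Control (log2 fold change 4.03 ± 0.31). Olfr509, which shares reads, Olfr218, Olfr117 and Olfr332 had log2 fold changes of 3.94, 3.90, 3.78 and 3.78. Olfr984, Olfr518 and Olfr1170 completed the group at 3.42, 3.37 and 3.23. All had groups that did not overlap, and all held without each of the 6 libraries.

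**Figure D2:**
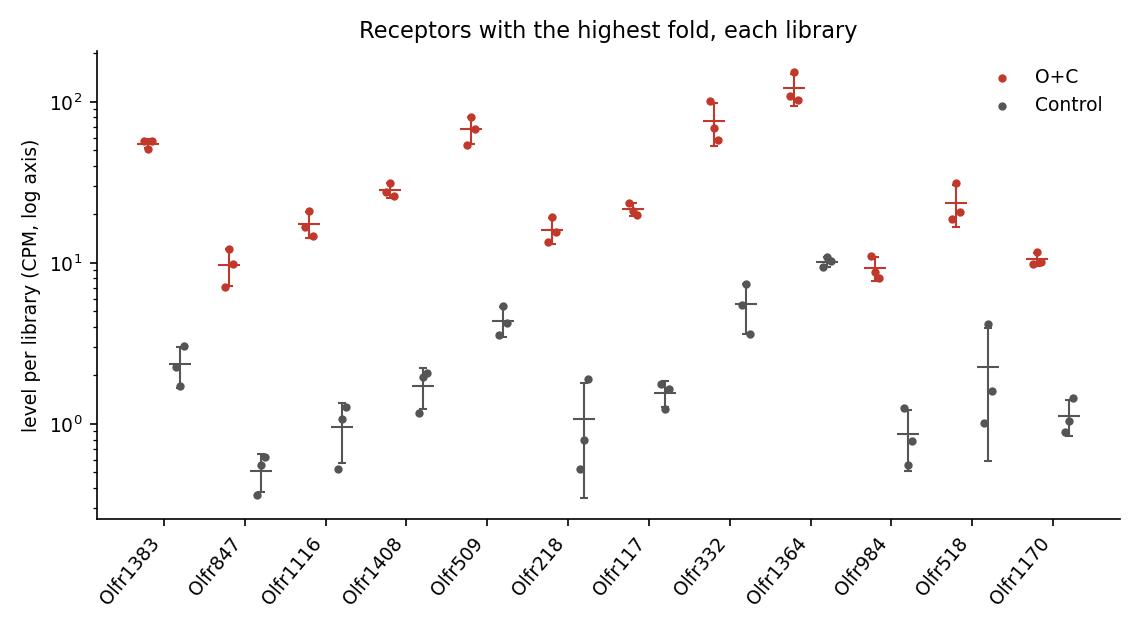
Level of the 12 receptors with the highest fold in each library, in CPM on a log axis, O+C in red and Control in grey, with the mean (dash) and SD (bar) of 3 libraries. Olfr1364, at 103 to 153 CPM in O+C and 9.46 to 10.8 CPM in Control, has the narrowest Control group, and in no receptor do the groups overlap.

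Counts were gained unevenly. The summed gain of the higher receptors, O+C minus Control, was 1870 CPM, and the 12 receptors with the largest gain supplied 957 CPM of it (51.3%). One of these, Olfr15, gained 91.6 CPM, with 242, 92.5 and 85.8 CPM in O+C and 47.8, 47.1 and 50.3 CPM in Control (log2 fold change 1.53 ± 0.35, edgeR adjusted p = 0.0203). Library O+C 1 stood far above the others, and the call was lost without any 1 of the Control libraries. The receptors named below were called in every fit, and all but Olfr695 are among those 12. CPM is not divided by transcript length, so the order below is one of counts. Olfr370 gained the most, with 177, 149 and 143 CPM in O+C and 33.9, 29.3 and 39.6 CPM in Control (log2 fold change 2.19 ± 0.17, edgeR adjusted p = 5.02e-07). Olfr1364 had 108, 153 and 103 CPM in O+C and 9.46, 10.8 and 10.2 CPM in Control (3.58 ± 0.16, edgeR adjusted p = 6.25e-10), and Olfr455 had 129, 117 and 133 CPM in O+C and 23.1, 25.5 and 27.3 CPM in Control (2.32 ± 0.16, edgeR adjusted p = 9.66e-08). Olfr1364 is called both for its fold and for its gain, as are Olfr332, Olfr509 and Olfr1383. Olfr124, Olfr1349 and Olfr1427 had log2 fold changes of 2.17, 2.20 and 2.13, and Olfr479 (which shares reads), Olfr1240 and Olfr695 of 3.12, 2.59 and 2.52. Within O+C, Olfr695 spread widely, at 86.5 CPM in O+C 1, 54.7 CPM in O+C 2 and 40.8 CPM in O+C 3, yet stayed above its Control values of 8.36, 12.8 and 10.6 CPM.

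Olfr2, the mouse form of the I7 receptor and a well-known receptor for octanal, lay at 19.9, 20.4 and 19.2 CPM in O+C and at 3.19, 3.75 and 4.83 CPM in Control. The O+C libraries were nearly equal and all above Control, and the log2 fold change was 2.34 ± 0.17 (edgeR adjusted p = 1.61e-07).

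The lower receptors moved less than the higher ones. The median log2 fold change of the lower receptors was -0.88 (-2.45 to -0.46), and 13 of the 32 were at least 2-fold lower. Olfr1260 had 5.98, 8.75 and 7.2 CPM in O+C and 11.8, 11.9 and 17.6 CPM in Control (log2 fold change -0.91 ± 0.19, edgeR adjusted p = 0.00595). Olfr1252 had 1.64, 1.69 and 1.48 CPM in O+C and 3.72, 3.95 and 4.3 CPM in Control (-1.31 ± 0.27, edgeR adjusted p = 0.00679). Both share reads, both kept their groups apart, and these are the 2 that held without each library.

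By class, 92 of 758 class II receptors were higher and 30 lower (16.1% called), with a median of -0.30. Among all genes 5.74% were higher and 2.35% lower (8.09% called). Of 86 class I receptors 1 was higher and 1 lower (2.33% called, a smaller share than among all genes), with a median of -0.50. The higher one, Olfr653, had 9.69, 5.06 and 6.69 CPM in O+C and 2.67, 4.03 and 2.44 CPM in Control (log2 fold change 1.23 ± 0.30, edgeR adjusted p = 0.0181), and its call was lost when Control 1, Control 3 or O+C 1 was left out. The lower one, Olfr571, lost its call when any of the 6 libraries was left out. Among 48 tested genes whose symbol marks a receptor pseudogene, 8 were higher and 1 was lower (18.8% called). The highest of them was Olfr766-ps1 at 10.5, 21.3 and 21.0 CPM in O+C and 0.768, 1.28 and 0.661 CPM in Control (4.28 ± 0.53, edgeR adjusted p = 0.000359). It shares reads, as do Olfr764-ps1 (3.17), Olfr718-ps1 (3.04) and Olfr1274-ps (2.92), which were singled out after their values were seen.

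Higher receptors came from 44 of the 207 families with a tested member, and some families held many. Both counts include the number MOR0 (3 tested, with Olfr455 higher), which was given no class. In MOR256, 16 of 43 tested receptors were higher and 1 lower (median log2 fold change 0.41). Besides Olfr1383, Olfr117, Olfr1364 and Olfr124 they included Olfr1362, with 27.1, 33.7 and 23.1 CPM in O+C and 3.11, 3.75 and 2.44 CPM in Control (3.17 ± 0.27), and Olfr123, with 27.1, 27.6 and 22 CPM in O+C and 3.88, 3.99 and 3.22 CPM in Control (2.79 ± 0.21). Without Control 1 the count was 11, the lowest of the 6 fits. In MOR267, 8 of 14 were higher and none lower, with a median of 1.87, and the 8 held in each of the 6 fits: Olfr1408, Olfr509, Olfr218, Olfr479, Olfr1358, Olfr370, Olfr1404 and Olfr63. Olfr63 had 7.75, 9.32 and 8.6 CPM in O+C and 2.22, 2.63 and 2.48 CPM in Control (1.81 ± 0.21).

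Smaller groups followed. MOR231 had 5 higher of 14, but a median of -0.34, so its receptors divided into a group that was higher and a group that was not. MOR111 had 4 of 9, or 2 without Control 3. MOR103, the family of Olfr2, had 3 of 17, and MOR264, the family of Olfr1116, had 3 of 16 with 1 lower. All 3 tested members of MOR286, Olfr287, Olfr286 and Olfr288, were higher. The shares of all genes called higher and lower were 5.74% and 2.35%.

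**Figure D3:**
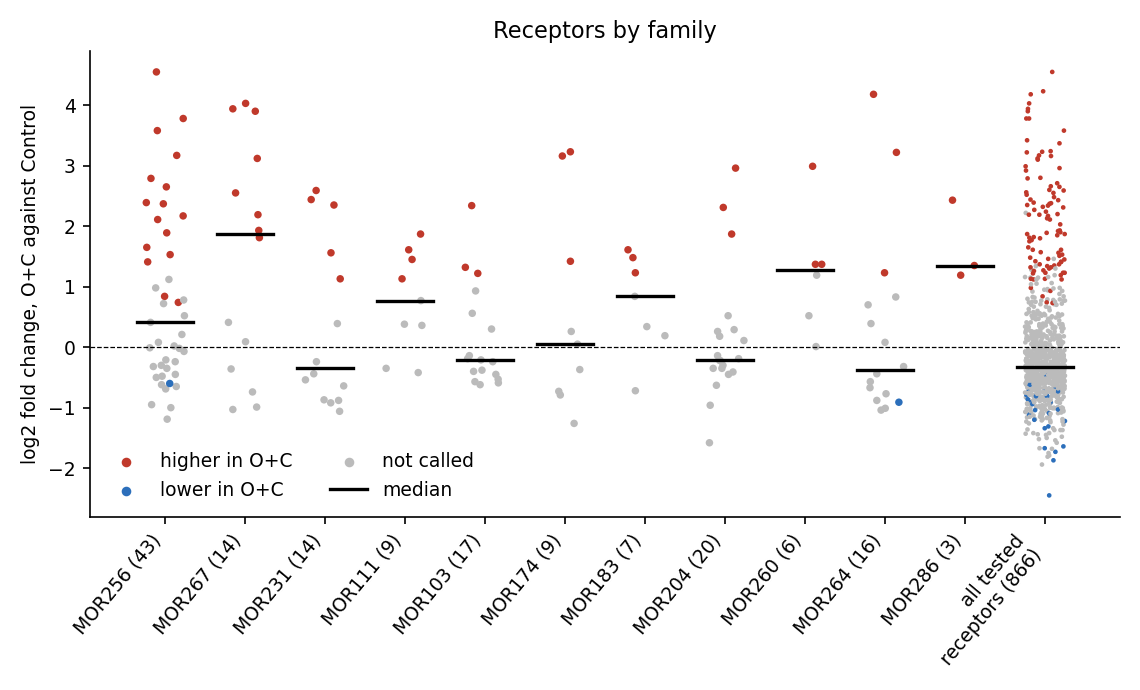
Log2 fold change (O+C against Control) of each tested receptor in the families with at least 3 higher receptors, and in all 866 tested receptors, with the number tested in brackets. Red, blue and grey points are higher, lower and not called, and bars are medians. The median of MOR267 lies at 1.87, and that of all receptors at -0.33.

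Near relatives often shared a call, with exceptions. Each of 857 receptors was matched to its nearest relative by identity of the coding sequence. Of the 98 higher receptors, 47 (48.0%) had a higher nearest relative, against 65 of 727 receptors that were not called (8.94%) and 2 of 32 lower receptors (6.25%). Close copies can share reads, so the shares were taken again where the nearest relative was under 85% identical: 21 of 52 higher receptors (40.4%) and 42 of 370 not called (11.4%). Relatives are not independent, and no test was made.

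Some pairs of close relatives parted. Olfr1116 stood at 16.8, 21.0 and 14.7 CPM in O+C, and Olfr1118, 96.8% identical to it in coding sequence, at 0.387, 0.683 and 1.05 CPM in O+C and 1.01, 0.798 and 1.36 CPM in Control (log2 fold change -0.57 ± 0.38, edgeR adjusted p = 0.401). Olfr1408 stood at 27.4, 31.5 and 26.0 CPM in O+C, and Olfr1406, 92.6% identical, at 3.87, 2.89 and 3.42 CPM in O+C and 3.35, 3.35 and 2.85 CPM in Control (0.09 ± 0.31, edgeR adjusted p = 0.898). The counts of all 4 were whole in 9 to 14 of the 15 libraries, and how many of their reads could fit either copy was not measured. These pairs were chosen after their values were seen. The stretches of 120 coding bases in which each pair differs most are shown because the values differ while the sequences are close. They are from the GENCODE M21 transcripts (GRCm38), 5′ to 3′ on the coding strand, with the differing bases in capitals. Olfr1116 and Olfr1118 lie on chromosome 2, and the stretch holds 5 of their 31 differences over 984 aligned bases. Olfr1408 and Olfr1406 lie on chromosome 1, and the stretch holds 21 of their 69 differences over 933 aligned bases.
Olfr1116: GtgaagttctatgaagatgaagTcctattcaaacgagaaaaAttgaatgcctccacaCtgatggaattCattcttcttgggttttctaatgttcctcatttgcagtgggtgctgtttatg
Olfr1118: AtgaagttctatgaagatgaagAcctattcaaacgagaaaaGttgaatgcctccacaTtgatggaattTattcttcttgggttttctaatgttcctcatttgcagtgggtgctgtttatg
Olfr1408: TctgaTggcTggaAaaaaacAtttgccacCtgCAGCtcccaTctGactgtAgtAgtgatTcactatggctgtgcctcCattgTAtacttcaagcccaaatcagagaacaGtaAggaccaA
Olfr1406: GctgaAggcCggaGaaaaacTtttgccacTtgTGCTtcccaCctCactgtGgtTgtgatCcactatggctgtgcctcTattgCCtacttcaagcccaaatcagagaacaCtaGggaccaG

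Other pairs parted in the same way. Olfr1170 had a log2 fold change of 3.23 and Olfr1166, 96.2% identical, of 0.26. Olfr695 had 2.52 and Olfr694, 90.6% identical, had -0.39. Olfr46 had 2.38 and Olfr538, 94.3% identical, had -0.15, though both share reads. Olfr1383 (4.55) and its nearest relative Olfr1384 (0.84) both rose, and the call of Olfr1384 was lost without Control 1, Control 2 or any O+C library.

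Among genes other than intact receptors, 1006 were higher and 419 lower of 18363. Nr4a1, an orphan nuclear receptor that neurons induce within hours of firing, rose most clearly, to 211, 229 and 293 CPM in O+C, against 43.6, 37.9 and 31.1 CPM in Control. Every O+C library lay far above every Control library (log2 fold change 2.7 ± 0.16, edgeR adjusted p = 1.52e-08). Of the list of 25 immediate early genes, 6 rose and none fell (24.0% called, against 5.74% higher and 2.35% lower among all genes; median 0.26, against -0.01 over all genes). Egr4, a zinc finger factor, had 2.32, 2.41 and 3.54 CPM in O+C and 0.404, 0.718 and 0.785 CPM in Control (2.11 ± 0.37, edgeR adjusted p = 0.00219). Maff, a small Maf factor that shares reads, had 33.4, 21.2 and 17.9 CPM in O+C and 10.1, 9.37 and 10.9 CPM in Control (1.25 ± 0.21, edgeR adjusted p = 0.0017). These 3 held without each library. Fosb (2.60) was lost without Control 2 or Control 3, Nr4a2 (1.36) when Control 2, Control 3 or O+C 1 was left out, and Ier2 (0.44) when Control 1, Control 3, O+C 1 or O+C 3 was dropped, so that 4 of the list remained without Control 2 and 3 without Control 3.

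Fos itself spread widely, at 38.1, 96.9 and 175 CPM in O+C and 40.3, 52.7 and 26.2 CPM in Control, and the groups overlapped (log2 fold change 1.38 ± 0.45, edgeR adjusted p = 0.0871). Egr1 followed the same order of libraries, at 57, 101 and 177 CPM in O+C and 54.1, 77.4 and 45.6 CPM in Control (0.92 ± 0.37, edgeR adjusted p = 0.163). Arc, a synaptic gene, had 12.7, 9.32 and 12.2 CPM in O+C and 14.6, 11.1 and 13.8 CPM in Control. Fos and Egr1 were lowest in O+C 1, where Dusp14 and Kirrel2 were highest.

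Of 24 regulators that feed back on MAP kinase and cyclic AMP signals, 5 rose and 2 fell (29.2% called, 8.09% of all genes; median 0.23). Dusp14, a dual-specificity phosphatase, had 681, 461 and 420 CPM in O+C and 223, 234 and 210 CPM in Control (log2 fold change 1.23 ± 0.14, edgeR adjusted p = 5.25e-05). Nfil3, a basic leucine zipper factor, had 56.1, 41.0 and 48.7 CPM in O+C and 30.4, 25.9 and 22.3 CPM in Control (0.89 ± 0.15, edgeR adjusted p = 0.00186). Both held without each library. The others did not: 2 rose without Control 3 or O+C 1, 3 when Control 1, Control 2 or O+C 3 was left out, and the 2 that fell, Rgs2 and Pde4b, were both lost without Control 1, Control 2 or O+C 1, and Rgs2 also without O+C 3.

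Many immediate early genes are switched on by the cyclic AMP factor CREB, which binds the palindrome TGACGTCA (the CRE) or its core TGACG. Both motifs were searched on both strands of the 250 bases before each RefSeq start (GRCm38.p6). The core lies inside the CRE, so every CRE also counts as a core. Of 11870 tested protein-coding genes other than receptors with a promoter in the table, 2.88% held a CRE and 28.3% a core. Among 698 higher genes these shares were 4.87% and 30.9%, among the 232 of them called in every fit that left out a library 4.74% and 26.3%, and among 317 lower genes 1.26% and 14.2%. For the core, the higher genes called in every fit thus lay below all tested genes, and the higher genes as a whole above them. Counted per promoter and not per gene, the shares over all 32851 promoters of the table were 1.55% and 17.8%. In the gene sets, a gene counted if any of its starts held the motif. Starts per gene averaged 1.27 over tested genes, 1.37 in higher genes, 1.43 in those called in every fit and 1.22 in lower genes. The base composition of the sets was not compared, and a match is not a binding site. Promoters of 4 higher genes are shown with each core in capitals (TGACG or, on the other strand, CGTCA), because they differ in how many they carry. The stretches are chr15:101266596-101266845 (plus strand) for Nr4a1, with 4 cores, chr6:85513590-85513839 (minus strand) for Egr4, with 2, chr15:79347270-79347519 (plus strand) for Maff, with a CRE, and chr3:45378148-45378397 (plus strand) for Pcdh10, with 2. Maff has other starts in the table, and this is the one with the CRE. The 250 bases of Dusp14, Sema7a, Kirrel2, Lrrc3b and Rem2 held no core.
Nr4a1: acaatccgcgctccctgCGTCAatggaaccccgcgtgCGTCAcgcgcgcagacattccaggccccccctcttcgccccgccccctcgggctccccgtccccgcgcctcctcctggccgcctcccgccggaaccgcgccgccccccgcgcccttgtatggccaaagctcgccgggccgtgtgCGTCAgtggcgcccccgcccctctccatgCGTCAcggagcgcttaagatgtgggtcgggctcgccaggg
Egr4: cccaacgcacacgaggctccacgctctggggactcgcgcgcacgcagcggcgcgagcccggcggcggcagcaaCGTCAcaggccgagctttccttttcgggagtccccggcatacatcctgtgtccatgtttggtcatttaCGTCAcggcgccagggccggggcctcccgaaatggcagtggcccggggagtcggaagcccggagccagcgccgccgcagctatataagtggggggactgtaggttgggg
Maff: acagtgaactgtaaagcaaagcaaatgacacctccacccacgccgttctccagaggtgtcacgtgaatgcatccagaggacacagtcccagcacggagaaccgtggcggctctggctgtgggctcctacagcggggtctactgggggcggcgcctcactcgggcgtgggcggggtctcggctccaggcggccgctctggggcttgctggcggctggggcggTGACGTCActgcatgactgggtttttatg
Pcdh10: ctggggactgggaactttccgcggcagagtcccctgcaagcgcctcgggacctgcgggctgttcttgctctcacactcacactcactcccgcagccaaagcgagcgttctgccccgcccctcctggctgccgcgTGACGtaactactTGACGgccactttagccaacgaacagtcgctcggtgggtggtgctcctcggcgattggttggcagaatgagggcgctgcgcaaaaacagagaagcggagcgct

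Genes that sort olfactory axons by activity rose together with the receptors: 7 of 15 rose and none fell (46.7%, against 5.74% of all genes higher; median 0.61), and 5 to 6 were called in the fits that leave out a library. Pcdh10, a protocadherin that shares reads, had 61.4, 37.7 and 46.2 CPM in O+C and 7.6, 10.1 and 4.26 CPM in Control (log2 fold change 2.72 ± 0.37, edgeR adjusted p = 0.000726). Sema7a, a semaphorin, had 30.8, 20.4 and 20.5 CPM in O+C and 9.09, 8.57 and 6.16 CPM in Control (1.59 ± 0.21, edgeR adjusted p = 0.000161). Kirrel2, an adhesion protein that gathers axons of like activity, had 715, 459 and 524 CPM in O+C and 177, 223 and 195 CPM in Control (1.51 ± 0.19, edgeR adjusted p = 0.000168). Its relative Kirrel3 rose less (0.85 ± 0.12), and it shares reads. Epha5, an ephrin receptor, rose by 0.91 ± 0.18. S100a5, a calcium-binding protein of active olfactory neurons, had 3150, 2790 and 2880 CPM in O+C and 1170, 1860 and 1550 CPM in Control (0.94 ± 0.26, edgeR adjusted p = 0.0419), and its call was lost when any of the 6 libraries was left out.

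Ion channels of the neurons changed too. Of 29 tested potassium channel genes 6 rose and none fell (20.7%, against 5.74% of all genes higher; median 0.49), and Kcng1 stood far above the rest. It encodes a subunit that is silent alone and modifies the Kv2 channels it joins. Kcng1 had 88.7, 52.5 and 56.2 CPM in O+C and 11.6, 12 and 6.73 CPM in Control, which is 2.7 ± 0.23 on the log2 scale (edgeR adjusted p = 2.81e-06). Kcnh3 had 177, 151 and 148 CPM in O+C and 88.2, 77.1 and 73.2 CPM in Control (1.00 ± 0.13), and Kcnn2, a calcium-activated channel that shares reads, rose by 0.95 ± 0.14. These 3 held without each library, and 3 genes of the list were called without O+C 1, 4 without Control 3 or O+C 3. Of 21 sodium and calcium channel genes 6 rose and none fell (28.6%, median 0.44), or 4 when any library other than O+C 2 was left out. Scn4b, an auxiliary sodium channel subunit, had 173, 130 and 153 CPM in O+C and 78.6, 77.6 and 61.9 CPM in Control (1.06 ± 0.16), and Scn9a, Scn3b and Cacnb3 rose by 0.84, 0.73 and 0.60.

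The transduction cascade itself was higher. Of 16 genes 13 rose and none fell (81.2%, against 5.74% of all genes higher; median 0.68), though 6 rose without Control 1, 7 without O+C 1, and 8 without Control 2 or O+C 2. Adcy3, the adenylyl cyclase that makes the cyclic AMP, had 357, 296 and 320 CPM in O+C and 178, 173 and 156 CPM in Control (log2 fold change 0.94 ± 0.16, edgeR adjusted p = 0.00174), and it shares reads. Gnal, the G protein subunit that drives Adcy3, also shares reads and rose by 0.79 ± 0.10. Cngb1, a subunit of the cyclic nucleotide-gated channel, had 66.7, 63.7 and 80.6 CPM in O+C and 43.2, 37.3 and 36.2 CPM in Control (0.85 ± 0.15, edgeR adjusted p = 0.00219). Ric8b, which promotes the activity of the G protein, rose by 0.81 ± 0.15, and Omp by 0.86 ± 0.14. Cnga2, the main subunit of the channel, rose by 0.72 ± 0.17 but was lost without Control 1 or O+C 1.

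Genes that damp the response rose in part: 8 of 18, none lower (44.4%, against 5.74% of all genes higher; median 0.32), or 5 without Control 1 or O+C 1. Pde4a and Pde1c, phosphodiesterases that break down cyclic AMP, rose by 0.86 ± 0.15 and 0.78 ± 0.15, and Pde1c shares reads. Vsnl1, a calcium sensor, had 30.3, 30.7 and 28 CPM in O+C and 12.5, 17.7 and 15.9 CPM in Control (0.95 ± 0.15, edgeR adjusted p = 0.000891). Camk2d, a calcium-dependent kinase that shares reads, rose by 0.65 ± 0.13.

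Of 32 genes of synaptic vesicles and neuropeptides 15 rose and none fell (46.9%, against 5.74% of all genes higher; median 0.62), or 10 without O+C 1. Chga and Chgb, granins of dense-core vesicles, had log2 fold changes of 1.19 ± 0.15 and 1.14 ± 0.16. Chga lay at 537, 386 and 401 CPM in O+C and at 195, 209 and 175 CPM in Control. Syt4 (which shares reads) and Scgn, both calcium-binding, rose by 1.12 and 0.97. Vesicle genes that held without each library also included Syn2 (0.87), Rab3a (0.74) and Vamp2 (0.61).

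Markers of mature olfactory neurons moved with these lists, which are not separate from them. Omp and Cnga2, named above with the transduction cascade, are also among the markers. Of 20 markers, 13 rose and none fell (65.0%, against 5.74% of all genes higher; median 0.74), 9 of them also without Control 1, and the list summed to 19000 to 20800 CPM of the library total in O+C and to 13200 to 14700 CPM in Control. None of its markers was at 0. Gfy, a Golgi protein of olfactory neurons, had 2040, 1660 and 1760 CPM in O+C and 897, 789 and 708 CPM in Control (log2 fold change 1.19 ± 0.16, edgeR adjusted p = 0.000233), and Umodl1 rose by 1.03 ± 0.13. The part of this shift in the changes of transduction, channel and vesicle genes was not tested. Of 20 genes of receptor choice and the unfolded protein response 2 rose (10.0%, median 0.10), or 1 without any Control library or O+C 1, and Ebf4, a factor of olfactory neurons, held (0.78 ± 0.11).

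Other genes rose as well. Lrrc3b, a leucine-rich repeat membrane protein that shares reads, had 711, 492 and 380 CPM in O+C and 124, 147 and 98.7 CPM in Control (log2 fold change 2.10 ± 0.23, edgeR adjusted p = 5.72e-05). Heg1, a transmembrane protein that shares reads, had 72.7, 63.6 and 68.6 CPM in O+C and 20.8, 21.1 and 17.6 CPM in Control (1.79 ± 0.14, edgeR adjusted p = 6.65e-07). Rem2, a small GTPase that inhibits calcium channels, rose by 1.63 ± 0.17, and Nptx2, a secreted pentraxin of synapses, by 1.59 ± 0.19. S100a3 (which shares reads), Nrde2, En2, Ntf3 and Ptchd1 rose by 1.43, 1.41, 1.36, 1.35 and 1.33. Ntf3, the neurotrophin NT-3, lay at 15.3, 16.4 and 14.4 CPM in O+C and at 4.16, 7.98 and 5.99 CPM in Control.

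**Figure D4:**
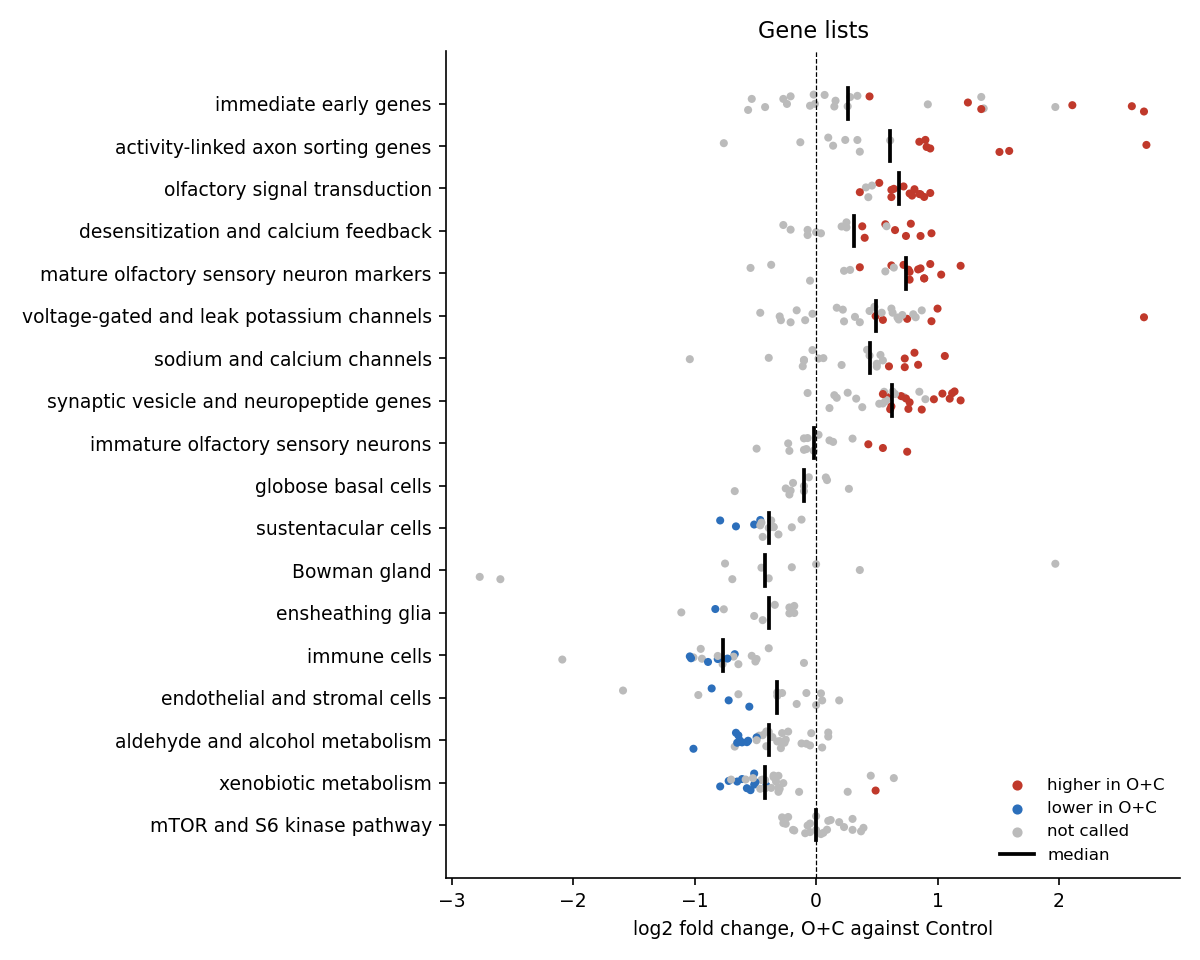
Log2 fold change (O+C against Control) of each tested member of 18 gene lists, coloured by call, with the median of each list as a bar. The medians of the lists from axon sorting to synaptic vesicle genes lie between 0.32 and 0.74, and that of the immediate early genes at 0.26. Those of immature neurons, globose basal cells and the mTOR pathway lie at -0.02, -0.10 and 0.00. The medians of the lists from sustentacular cells to xenobiotic metabolism lie between -0.77 and -0.32.

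Lists of immature neurons and stem cells gave few calls. Of 15 genes of immature olfactory neurons 3 rose (20.0%, against 5.74% of all genes higher; median -0.02), of which Stmn4, a tubulin-binding protein, held without each library (0.75 ± 0.12), and 1 was called without any Control library or without O+C 1. None of 11 globose basal cell genes was called, and of 9 horizontal basal cell genes Krt15 fell, lost without Control 2 or O+C 1. The medians of the last 2 lists were -0.10 and -0.45, and the sign for immature neurons and globose basal cells turned with receptor scaling (0.22 and 0.10). None of 23 genes of the mTOR and S6 kinase pathway was called (median 0.00), and Rps6, which encodes S6 and shares reads, lay at 216, 226 and 243 CPM in O+C and at 241, 252 and 325 CPM in Control.

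Genes of other cells tended to be lower in O+C, in few calls that held. Of 15 sustentacular cell genes 4 fell and none rose (26.7%, against 2.35% of all genes lower; median -0.39), and the list summed to 5080, 6680 and 6810 CPM in O+C and to 9660, 8400 and 7930 CPM in Control, without overlap. Sult1c1, a sulfotransferase, had 68.3, 77.0 and 75.2 CPM in O+C and 121, 137 and 125 CPM in Control (log2 fold change -0.79 ± 0.12, edgeR adjusted p = 0.000628) and held without each library. Without O+C 1 it was the 1 gene of the list that fell, and without Control 1 there were 2. Of 19 immune genes 6 fell and none rose (31.6%, against 2.35%; median -0.77), or 1 without Control 1, Control 2 or O+C 1, 2 without O+C 2 or O+C 3 and 3 without Control 3, and the list summed to 913 to 1010 CPM in O+C and to 1520 to 2230 CPM in Control. Lyz2, lysozyme of macrophages, shares reads and had 275, 230 and 237 CPM in O+C and 474, 373 and 388 CPM in Control (-0.73 ± 0.13, edgeR adjusted p = 0.00186). Under receptor scaling 1 of these sustentacular genes and none of the immune genes fell, and both medians stayed below 0 (-0.17 and -0.54). Of 21 interferon genes 2 fell (9.52%, against 2.35%; median -0.89), with 204 to 265 CPM in O+C and 290 to 526 CPM in Control, the highest in Control 1, and none was called without Control 1 or any O+C library.

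Enzymes that handle odorants and foreign compounds lay on the same side. Of 31 genes of aldehyde and alcohol metabolism 9 fell and none rose (29.0%, against 2.35% of all genes lower; median -0.39), or 2 when Control 1 or O+C 1 was left out, 3 for O+C 3, 5 for Control 2 and 6 for Control 3, and none under receptor scaling. Akr1b3, an aldose reductase that shares reads, held with 90.4, 114 and 97.7 CPM in O+C and 154, 146 and 147 CPM in Control (log2 fold change -0.57 ± 0.11, edgeR adjusted p = 0.00527). Of 32 xenobiotic genes 10 fell and 1 rose (34.4%, against 8.09% of all genes called; median -0.42), or 2 fell when O+C 1 was left out, 3 for Control 1 and 6 for Control 2 or O+C 3, and 1 fell under receptor scaling. The 1 that rose, Cyp2s1, lost its call when any of the 6 libraries was left out. Gsta4, a glutathione transferase, had 122, 143 and 129 CPM in O+C and 203, 178 and 205 CPM in Control (-0.57 ± 0.12, edgeR adjusted p = 0.00568). These enzymes are made largely by sustentacular and gland cells, and the part of those cells in the lower values was not tested. The sums of the sustentacular markers are given above. Bowman gland genes gave no call of 10 (median -0.42), and summed to 2480 to 2850 CPM in O+C and to 3730 to 5470 CPM in Control. Gland odorant binding proteins summed to 5680 to 6200 CPM in O+C and to 7760 to 9920 CPM in Control, though their median was 0.09. Of 11 genes of gland odorant binding proteins 1 fell, Bpifa1, lost without Control 1, Control 3 or any O+C library.

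The lower genes named by fold held without each library and were small changes. Fabp4, a fatty acid-binding protein of fat and vessel cells, had 2.88, 2.61 and 3.07 CPM in O+C and 7.35, 8.14 and 4.75 CPM in Control (log2 fold change -1.24 ± 0.25, edgeR adjusted p = 0.0062). Aoc1, which degrades histamine, Sult1b1, a sulfotransferase, Plscr2, Vwa1 and Cx3cr1, the fractalkine receptor of microglia and monocytes, fell by 1.03, 1.01, 0.99, 0.92 and 0.89. Cx3cr1 lay at 8.05, 6.87 and 8.17 CPM in O+C and at 14.8, 14.4 and 13.6 CPM in Control. Acsbg1, Serpinb9, Serpinb6b and Gatm fell by 0.88, 0.88, 0.87 and 0.86, and Hspa1b, an inducible heat shock protein, and Cxcl16, a chemokine, by 0.84 and 0.82, both sharing reads.

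The remaining lists gave few calls or calls that were mostly lost when a library was left out. None of 5 tested trace amine receptors was called (10 of 15 had too few counts), with medians of -0.40 here and -0.01 over all genes. Of 16 genes of other chemosensory neurons 4 fell (25%, against 2.35% of all genes lower; median -0.71), or 2 without Control 2, 1 without Control 3 or O+C 2, and none without Control 1, O+C 1 or O+C 3. Of 11 microvillar genes 1 rose and 1 fell, and of 10 ensheathing glia genes 1 fell and all lay below 0 (median -0.39, or -0.17 and 6 below 0 under receptor scaling). Ciliated cells gave 1 of each in 12, with Sntn, a protein of motile cilia, lower at 15.6, 11.3 and 13.6 CPM in O+C and 25.1, 18.1 and 27.6 CPM in Control. Of these calls only that of Sntn held without each library. None of 8 red blood cell genes was called. Of 15 endothelial and stromal genes 3 fell (20.0%, against 2.35%; median -0.32), or 1 without any Control library and none without O+C 1. Cytosolic ribosomal protein genes had no call, but all 81 lay below 0 (median -0.28), or 49 of them under receptor scaling (median -0.03). Of 12 mitochondrially encoded genes none was called and 11 lay below 0 (median -0.27).

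The comparison with A+D, the other pair on 1 paper, shows where O+C differed from another odour given the same way. It shares the O+C libraries with the comparison above. Against A+D, 271 genes were higher in O+C (1.41%) and 115 lower (0.598%), and 80 of the higher and 63 of the lower genes were among the 866 receptors. Without O+C 1 132 genes were called in either direction, 231 without A+D 2, 237 without O+C 3 and 1279 without A+D 1, while receptors called stayed at 97 to 158. Olfr847 had 7.1, 12.2 and 9.88 CPM in O+C and 0.923, 0.133 and 0.286 CPM in A+D (log2 difference 4.42 ± 0.49, edgeR adjusted p = 5.45e-05). Olfr1506 (which shares reads), Olfr1358 and Olfr819 (which shares reads) differed by 4.12, 3.90 and 3.80. On the other side, Olfr983 had 2.11, 2.45 and 1.24 CPM in O+C and 25.2, 24.4 and 34.7 CPM in A+D (-3.86 ± 0.22, edgeR adjusted p = 1.05e-08), and Olfr1283 (which shares reads), Olfr901 and Olfr1051 differed by -3.98, -3.89 and -3.01. Olfr2 had 3.44, 4.3 and 4.49 CPM in A+D, a difference of 2.28 ± 0.17 (edgeR adjusted p = 2.42e-07).

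Several receptors raised in O+C over Control were intermediate in A+D. Olfr455 had 129, 117 and 133 CPM in O+C and 48.0, 70.9 and 54.6 CPM in A+D (1.12 ± 0.15, edgeR adjusted p = 0.000241). Olfr218 had 13.4, 19.2 and 15.5 CPM in O+C and 3.23, 6.2 and 10.1 CPM in A+D, and the difference of 1.30 ± 0.40 did not pass (edgeR adjusted p = 0.109). Olfr117 likewise had 23.6, 21.0 and 19.9 CPM in O+C and 5.37, 14.6 and 11.7 CPM in A+D (1.03 ± 0.30, edgeR adjusted p = 0.0893). With acetophenone and decanal on separate papers (A&D), Olfr218 had a mean of 22.8 CPM and Olfr117 of 31.6 CPM. Both means lay above every O+C library of the same receptor, so neither receptor was highest in O+C. The A&D mean of Olfr455 lay below each of its O+C values. These differences between O+C and A&D were not tested. Olfr1368, a MOR256 receptor with 41.8, 46.5 and 44.8 CPM in O+C and a log2 fold change of 2.37 over Control, was lower in O+C than in A+D (-0.82, edgeR adjusted p = 0.00621). Nr4a1 had 38.5, 33.5 and 41.0 CPM in A+D, so O+C stood 2.7 ± 0.16 above A+D (edgeR adjusted p = 1.05e-08). The mean of Nr4a1 was 80.4 CPM in A&D, between 37.5 CPM in Control and 245 CPM in O+C. Kcng1 had 22.8, 20.9 and 26.1 CPM in A+D, a difference of 1.5 ± 0.22 (edgeR adjusted p = 0.000951). For Kirrel2 the difference of 0.75 ± 0.19 did not pass (edgeR adjusted p = 0.0516), and for Omp the difference was 0.50 (edgeR adjusted p = 0.077).

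Against O&C, the same odorants on separate papers, no gene was called by edgeR among 19229 (0.0% higher and 0.0% lower), with a smallest adjusted p of 0.152. Unadjusted p lay under 0.05 for 766 genes (3.98%), and DESeq2 called 9. With edgeR, receptor scaling gave 1 gene, and no count filter gave 204, in a fit where the spread of most genes between their own libraries had no weight (infinite prior degrees of freedom, against 7.64 with the filter). Of the 98 receptors called higher than Control, 82 lay lower in O+C than in O&C, none of them called. Their median log2 difference was -0.36, against -0.00 over all genes. The receptor share of counts was 0.423%, 0.573% and 0.569% in O&C, so O&C 1 lay below every O+C library and the other O&C libraries above. Why these receptors lay lower was not tested. Olfr1364 had 108, 153 and 103 CPM in O+C and 131, 121 and 154 CPM in O&C (log2 difference -0.16 ± 0.14). Olfr847 had 7.1, 12.2 and 9.88 CPM in O+C and 9.58, 25.2 and 23.2 CPM in O&C (-0.99 ± 0.36), and Olfr2 differed by 0.01 ± 0.15. Nr4a1 had 211, 229 and 293 CPM in O+C and 181, 164 and 209 CPM in O&C (0.41 ± 0.15), without overlap. A difference that misses the threshold in 3 against 3 libraries does not show that the deliveries act alike.

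**Figure D5:**
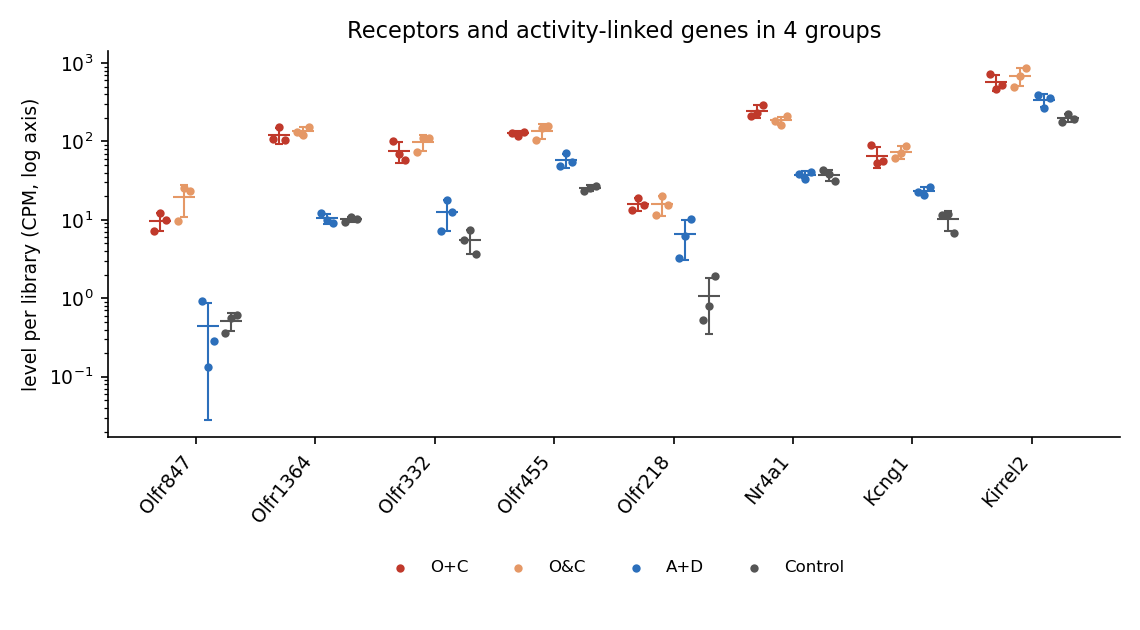
Level of 5 receptors and 3 other genes in each library, in CPM on a log axis, for O+C, O&C, A+D and Control from left to right, with the mean (dash) and SD (bar) of 3 libraries. Olfr1364 and Nr4a1 are high in O+C and O&C and near Control in A+D, while Olfr455, Olfr218 and Kcng1 are intermediate in A+D.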

How the data were processed

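RNA bound to ribosomes with phosphorylated S6 was sequenced from olfactory epithelium with a stranded kit, per the labels' protocols. The deposited tables hold expected counts (estimates, so not always whole numbers), made by the authors with STAR 2.7.10b and Salmon 1.10.1 on GRCm39, per the submitters' processing notes. The annotation and the strand setting are not given in the sources used here. Of the values in a library 86.0% to 87.9% were whole within 0.0005. Symbols were matched for 52029 of 57010 identifiers, and the 4981 others held 0.313% to 0.551% of a library's counts. The name table and promoters are from RefSeq on GRCm38.p6, so gene positions are not given on GRCm39.

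Counts were rounded and filtered by filterByExpr (minimum count 10), leaving 19229 genes. TMM scaling was applied, and all 15 libraries were fitted in 1 model with a mean per group by edgeR 4.0.16 (robust quasi-likelihood F test, two-sided) in R 4.3.3, with Benjamini-Hochberg adjustment over all genes and a threshold of 0.05. An SE was taken as |log2 fold change| / √F. The biological coefficient of variation was 0.183. Library totals ran from 22704177 to 25287060. The groups' errors include counting error. A p-value sets a difference against the spread within groups, estimated over all 15 libraries. That estimate was shared in part across genes (median prior degrees of freedom 7.64). Levels are TMM-scaled CPM, except list sums and the receptor share, which are over library totals. A gene is said to share reads where its counts were not whole in most of the 15 libraries.

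Receptors were genes named Olfr plus a number. Classes and families were read from MOR numbers in the synonyms (849 receptors). Nearest relatives came from the longest reading frame of GENCODE M21 transcripts aligned with MAFFT 7.526. Of 28 lists written by hand and a few taken by symbol, each is described by its counts and median. The members and lists were chosen with earlier results of these data known. The genes named by rule were called in the fit of all libraries and in each of the 6 fits that leave out an O+C or Control library, had groups that did not overlap and a mean of at least 1 CPM: the 12 receptors highest in fold, the 12 with the largest gain, up to 8 lower receptors, 15 higher and 12 lower other genes, and up to 4 per list. Other genes in the text were chosen after their values were seen. Same-numbered O+C and Control libraries did not deviate together, so no replicate block was used. Alternatives were edgeR's RLE and receptor scaling, no count filter, DESeq2 1.42.0, the compared groups alone, a replicate block and leaving out each library. The fits were tested on simulated data.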

Additional observations from a re-analysis of the deposited data

How the results depend on the processing

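Receptors called higher, 98 with all libraries, numbered 77 to 90 when a library was left out and 75 with receptors of whole counts only, and the receptor share kept its direction in every setting (0.11 to 0.138 percentage points without a library). Counts of lower genes, and of genes called against A+D and O&C, moved with the processing, and the cause was not tested unless stated. Scaling by the receptors gave 1786 higher and 24 lower genes, 7 lower receptors and 1 gene against O&C. With no count filter 33222 genes were tested, and the median prior degrees of freedom were infinite, against 7.64 with the filter, so a gene's own spread between libraries had no weight for most genes. That fit gave 799 lower genes, 1660 genes called against A+D and 204 against O&C. A fit of the compared groups alone gave 1031 lower genes, 52 lower receptors and 124 genes against A+D. DESeq2 gave 818 lower genes, 1116 against A+D and 9 against O&C. Lower receptors with whole counts only, a smaller set, were 21. Without a library there were 476 to 908 higher genes, 66 to 298 lower genes, 3 to 21 lower receptors, 132 to 1279 genes against A+D and 0 to 2 against O&C.

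Same-numbered O+C and Control libraries had correlations of deviations of -0.0402, 0.0281 and 0.0678, so they share only a number. With the replicate block there were 291 lower genes, 20 lower receptors and 224 genes against A+D, while 816 higher genes and 91 higher receptors were called, and the share differed by 0.126 points (exact sign-flip p = 0.25, the smallest possible). All calls rest on 3 libraries a group, and genes with few counts were not tested.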
